A study of Mus musculus with 6 samples.

Results

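The genes described here make, spend, remove, break down or recognise sialic acid: *Npl*, *Gne*, *Nans*, *Cmas*, *Neu1*, *Neu3*, *Siglec1*, *Siglece* and *Cd33*. They are 9 of the 24346 gene symbols measured by RNA-Seq in CX3CR1-EGFP+ cells sorted as osteoclast precursors, and all 9 were found by symbol. *Npl* was chosen by its difference between JAK inhibitor-treated and vehicle-treated mice in these same libraries, so its values are given as a description without a test, and the other 8 were added for their function. The cells were EGFP+ cells sorted from the calvarial bone marrow of CX3CR1-EGFP mice, a knock-in line in which the green reporter is driven by the *Cx3cr1* locus and labels monocytes and their descendants. Controls included, all mice received lipopolysaccharide (LPS) at the calvaria. One group of 3 libraries came from mice given by mouth the JAK inhibitor ABT-317, which is selective for JAK1, a Janus kinase that signals downstream of many cytokine receptors, and the other 3 came from mice given vehicle. There was no group without LPS, and neither the age of these mice nor whether they carried 1 or both reporter alleles is given in the sources used here. Each library is taken to come from a separate mouse, as the study describes its groups; the labels themselves give only a number, so p-values measure the spread between these libraries. The comparison addresses which transcripts of these sorted cells differ when JAK signalling is blocked during LPS-driven bone inflammation.

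Sialic acids are acidic sugars that cap many glycans on the surface of mammalian cells. The cell builds them from UDP-GlcNAc, links them to the nucleotide CMP, and sialyltransferases in the Golgi apparatus then attach them to proteins and lipids. Sialidases remove them again, mostly in the lysosome, and the free sugar is either reused or cleaved in the cytosol. Siglecs are cell surface lectins of leukocytes that bind sialylated glycans, and many of them carry inhibitory motifs; in osteoclast biology the family is known for *Siglec15*, whose protein works with the adaptor encoded by *Tyrobp* in osteoclast formation.

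Sequence at the start of the gene is shown for the 3 members whose values did not overlap between the groups, *Npl*, *Neu1* and *Cd33*. They are 3 of 7 tested members (42.9%, against 22.0% of all genes tested), and *Npl* was chosen by this difference. The windows searched were the 250 bases before the RefSeq start (GRCm38.p6) on the gene's own strand: chr1:153549715-153549964 (minus strand) for *Npl*, chr17:34931003-34931252 (plus strand) for *Neu1* and chr7:43533172-43533421 (minus strand) for *Cd33*. In the GENCODE annotation the *Npl* window lies wholly within the first exon of *Npl*, since that transcript starts farther upstream, and 57 bases of the *Cd33* window lie in an exon of a longer *Cd33* transcript, so these windows are upstream only of the RefSeq start. The *Neu1* window holds no exon and is printed whole. Of *Cd33* the 193 bases next to the start (chr7:43533172-43533364) are printed, and of *Npl* 30 bases around an E-box (chr1:153549748-153549777). All runs are 5′ to 3′, and capitals mark the E-box, CACGTG.
Npl: cccgcgcggcccCACGTGgtcccgcagccc
Neu1: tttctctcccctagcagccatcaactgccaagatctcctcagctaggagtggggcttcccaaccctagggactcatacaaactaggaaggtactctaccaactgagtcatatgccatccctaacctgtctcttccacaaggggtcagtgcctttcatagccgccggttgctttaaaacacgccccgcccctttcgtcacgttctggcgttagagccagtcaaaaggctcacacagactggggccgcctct
Cd33: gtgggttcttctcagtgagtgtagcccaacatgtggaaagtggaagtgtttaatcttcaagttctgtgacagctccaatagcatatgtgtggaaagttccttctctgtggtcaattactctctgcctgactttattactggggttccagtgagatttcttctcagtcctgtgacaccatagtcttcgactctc

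Of the 9 members, 7 had a RefSeq promoter entry, with 8 windows in all, since *Gne* has 2 starts; *Nans* and *Siglec1* had none. These windows were searched on both strands for 4 motifs: the gamma-activated site TTCNNNGAA bound by STAT dimers, the interferon-stimulated response element (GAAA repeated after a gap of 2 bases), the E-box CACGTG bound by factors of the MiT and Myc families, and the PU.1 site GAGGAAGT. The only match among the 8 windows was the E-box 51 bases before the RefSeq start of *Npl*. Among all 32851 windows of this length, 6.02% held this E-box, 7.02% the gamma-activated site, 2.98% the interferon-stimulated response element and 2.44% the PU.1 site. The windows of *Npl*, *Neu1* and *Cd33* had a GC content of 59.6%, 54.4% and 46.8%.

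The values are FPKM, that is fragments scaled by transcript length and by the size of the library, as deposited, and differences are on the scale of log2(FPKM + 1), JAK inhibitor minus vehicle, a scale on which changes of weakly expressed genes come out too small. Across the 11301 genes with at least 1 FPKM in at least 1 library, 15 (0.133%) had an adjusted p under 0.05 with limma. The same test gave an unadjusted p under 0.05 for 16.0% of the genes, and the groups did not overlap for 22.0%. In JAK inhibitor-treated mice 12.1% of the genes lay below all controls and 9.92% above all controls. The FPKM of a library summed to between 688372 and 775790, and the read depth is unknown. Vehicle-treated mouse 3 stood apart: its correlation with the other vehicle libraries was 0.973 to 0.975, against 0.981 to 0.985 for the 4 other pairs within a group. Markers of monocytes and osteoclast precursors, among them *Csf1r*, *Ccr2*, *Ly6c2* and *Cx3cr1*, were all detected, with a summed level of 4095 to 5840 FPKM in vehicle-treated and 5257 to 5713 FPKM in JAK inhibitor-treated mice. Of these 8 genes 4 were lower (50.0%, against 50.6% of all genes tested) and 4 higher, with log2 differences from -0.83 to 0.36. By limma 2 of the 8 (25.0%, against 16.0% of all genes tested), both lower, had an unadjusted p under 0.05, and 0 had an adjusted p under 0.05.

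*Npl* encodes N-acetylneuraminate pyruvate lyase, the cytosolic enzyme that splits free sialic acid into N-acetylmannosamine and pyruvate, the committed step of its breakdown. It lies on the minus strand of chromosome 1 (153503015 to 153550045; mm10). Its level was 25.5, 28.5 and 34.7 FPKM in vehicle-treated mice 1 to 3 and 12.2, 13.4 and 12.0 FPKM in JAK inhibitor-treated mice 1 to 3. Every treated library was below every control library. The means were 29.5 ± 4.71 and 12.5 ± 0.733 FPKM (SD, n = 3), 2.36 times as high in the controls, with a log2 difference of -1.16 (standard error 0.14). This difference lay between -1.26 and -1.05 over 14 alternative ways of processing, which included leaving out each library in turn. In bulk RNA a smaller number of cells that express a gene and less RNA in each of them cannot be told apart.

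**Figure D1:**
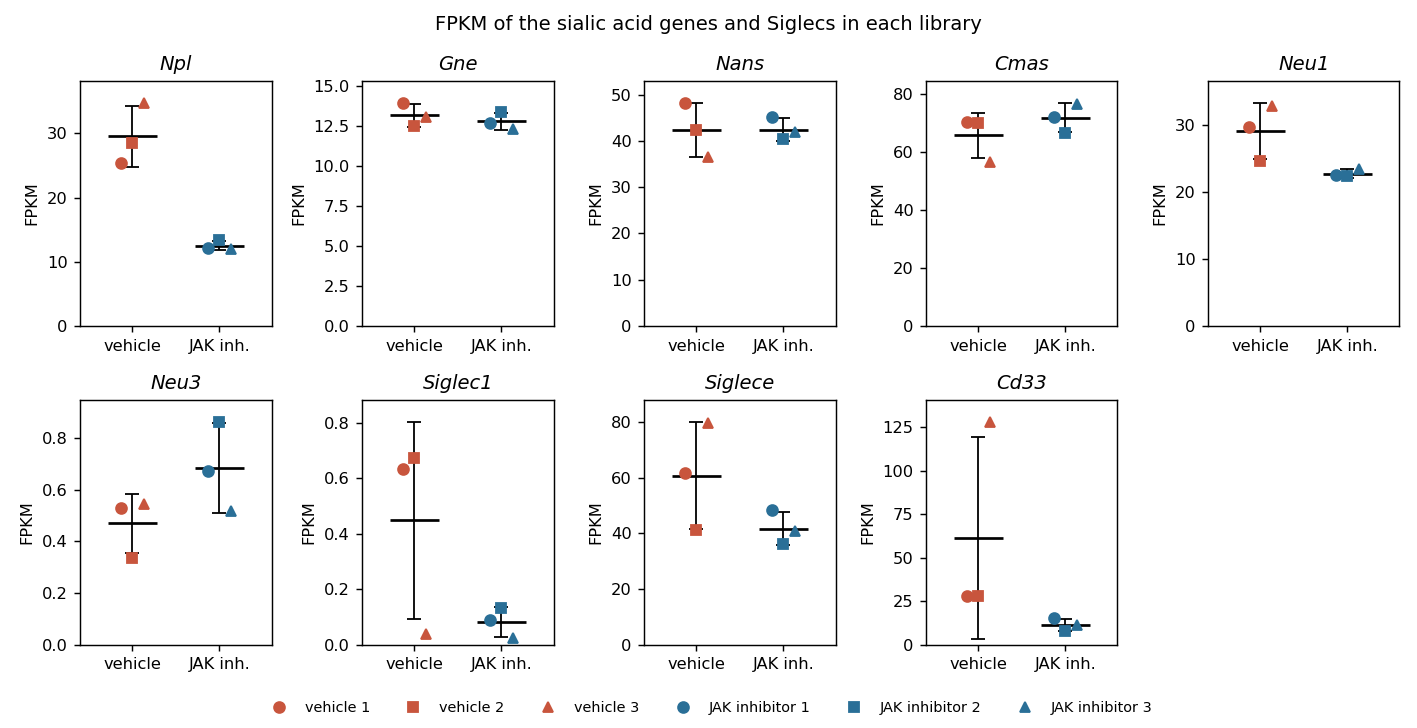
FPKM (y axis of each panel, linear from 0) of the 9 sialic acid genes and Siglecs in 3 vehicle-treated (red) and 3 JAK inhibitor-treated (blue) libraries; the symbol shape gives the replicate number, long bars are means and short bars the SD. *Npl* sits at 25.5 to 34.7 FPKM in the controls and at 12.0 to 13.4 FPKM in the treated mice, *Gne*, *Nans* and *Cmas* overlap, and the spread of *Cd33* is set by vehicle-treated mouse 3 at 128 FPKM.

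Of the 4 enzymes that make and activate sialic acid, *Gne*, *Nans* and *Cmas* differed by less than the spread between libraries. *Gne* encodes the bifunctional enzyme that commits UDP-GlcNAc to the pathway (chromosome 4, 44034075 to 44084177, minus strand). Its level was 13.9, 12.5 and 13.1 FPKM in vehicle-treated and 12.7, 13.4 and 12.3 FPKM in JAK inhibitor-treated mice, and the groups overlapped. The log2 difference was -0.04, with a 95% confidence interval of -0.30 to 0.23 and a limma adjusted p of 0.909.

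*Nans* encodes sialic acid synthase (chromosome 4, 46489248 to 46503632, plus strand), which condenses phosphorylated N-acetylmannosamine with phosphoenolpyruvate. The values were 48.1, 42.4 and 36.6 FPKM in vehicle-treated and 45.1, 40.3 and 42.0 FPKM in JAK inhibitor-treated mice, with the treated values inside the range of the controls. The log2 difference of *Nans* was 0.01 (95% confidence interval -0.26 to 0.28; limma adjusted p = 0.977). *Trim14* overlaps *Nans* on the opposite strand, and the sources disagree on whether the libraries kept the strand, so reads of the 2 genes may not have been told apart.

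*Cmas* encodes the nuclear enzyme that links sialic acid to CMP (chromosome 6, 142756686 to 142775714, plus strand), and it had the highest mean of the 9 members in both groups. It measured 70.4, 69.9 and 56.6 FPKM in vehicle-treated and 72.1, 66.5 and 76.5 FPKM in JAK inhibitor-treated mice. These values overlapped, and the log2 difference was 0.13 (95% confidence interval -0.13 to 0.39; limma adjusted p = 0.617). For *Gne*, *Nans* and *Cmas* the interval therefore excluded a difference as large as that described for *Npl*. The fourth gene of this list, *Nanp*, whose product removes the phosphate between the *Nans* and *Cmas* steps, was at 21.3, 22.1 and 18.4 FPKM in vehicle-treated and 24.9, 23.8 and 23.5 FPKM in JAK inhibitor-treated mice. All treated libraries were above the controls for *Nanp*, and its log2 difference of 0.22 did not pass the test (adjusted p = 0.381 with limma).

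The sialidases gave values of another size for each member. *Neu1* encodes the lysosomal sialidase (chromosome 17, 34931253 to 34935953, plus strand), which is active in a complex with protective protein/cathepsin A, the product of *Ctsa*. Its level was 29.7, 24.7 and 32.9 FPKM in vehicle-treated and 22.5, 22.3 and 23.5 FPKM in JAK inhibitor-treated mice. The treated libraries were all below the controls, but the nearest values, 23.5 and 24.7 FPKM, were close. The means were 29.1 ± 4.15 and 22.8 ± 0.617 FPKM (SD, n = 3), and the log2 difference of -0.33 (standard error 0.12) did not pass the limma test (adjusted p = 0.241). *Ctsa* had a log2 difference of 0.11 with overlapping groups.

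*Neu3* encodes the plasma membrane sialidase that acts on gangliosides (chromosome 7, 99811439 to 99828417, minus strand). It was low, at 0.529, 0.337 and 0.543 FPKM in vehicle-treated and 0.671, 0.863 and 0.518 FPKM in JAK inhibitor-treated mice. The groups overlapped, and no library reached the 1 FPKM needed to enter the limma fit (exact permutation p = 0.3, two-sided). *Neu2* and *Neu4*, the other sialidases, were listed at 0 in all 6 libraries.

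The Siglecs among the members ranged from near 0 to over 100 FPKM. *Cd33* encodes the mouse member most related in sequence to human CD33 (chromosome 7, 43524216 to 43544428, minus strand). It measured 28.1, 27.6 and 128 FPKM in vehicle-treated and 15.0, 7.78 and 11.3 FPKM in JAK inhibitor-treated mice. The groups did not overlap, and vehicle-treated mouse 3 was far above the other controls, so the means were 61.3 ± 57.8 and 11.3 ± 3.61 FPKM (SD, n = 3). The log2 difference was -1.99 (standard error 0.52; 95% confidence interval -3.17 to -0.81), which did not pass after adjustment over all genes (limma adjusted p = 0.136). Without vehicle-treated mouse 3 the log2 difference of *Cd33* was -1.27 (limma adjusted p = 0.104), and over the alternatives its adjusted p ran from 0.0868 to 0.390.

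*Siglece* encodes an inhibitory Siglec of mouse neutrophils and monocytes (chromosome 7, 43651070 to 43660161, minus strand). The values were 61.5, 41.0 and 79.7 FPKM in vehicle-treated and 48.2, 36.2 and 40.6 FPKM in JAK inhibitor-treated mice. The groups overlapped, with vehicle-treated mouse 2 inside the treated range. The log2 difference of *Siglece* was -0.49 (95% confidence interval -0.98 to 0.00; limma adjusted p = 0.313). It was -0.27 without vehicle-treated mouse 3 and -0.74 without vehicle-treated mouse 2 (limma adjusted p = 0.104).

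*Siglec1* encodes sialoadhesin, a large Siglec of tissue macrophages without an inhibitory motif and known as an interferon-inducible gene (chromosome 2, 131069220 to 131086765, minus strand). It was at 0.633, 0.674 and 0.038 FPKM in vehicle-treated and 0.089, 0.133 and 0.022 FPKM in JAK inhibitor-treated mice. Vehicle-treated mouse 3 lay within the treated range, and no library reached 1 FPKM, so *Siglec1* did not enter the limma fit (exact permutation p = 0.3, two-sided). Of the 6 members other than *Npl* that were tested, none had a limma adjusted p under 0.05, and 2, *Neu1* and *Cd33*, had an unadjusted p under 0.05, both lower in treated mice, a direction and threshold met by 9.4% of all genes tested. For a single gene the exact permutation test of 3 against 3 libraries cannot give a two-sided p below 0.1, which is the value it gave for *Neu1* and *Cd33*.

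FPKM is scaled to transcript length, so the mean levels of the members can be set in order. In vehicle-treated mice the order was *Cmas*, *Cd33*, *Siglece*, *Nans*, *Npl*, *Neu1*, *Gne*, *Neu3* and *Siglec1*. Neighbours in this order overlapped except *Nans* and *Npl*, *Neu1* and *Gne*, and *Gne* and *Neu3*. In JAK inhibitor-treated mice the order was *Cmas*, *Nans*, *Siglece*, *Neu1*, *Gne*, *Npl*, *Cd33*, *Neu3* and *Siglec1*. There *Nans* overlapped *Siglece*, *Gne* overlapped *Npl*, and *Npl* overlapped *Cd33*, whereas the other neighbours were apart.

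The level of *Npl* was also set against each other gene of the same library, a ratio that does not depend on how the library was scaled. Since *Npl* was chosen for its difference, these ratios are a description. Per 100 FPKM of *Gne* there were 183, 227 and 265 FPKM of *Npl* in vehicle-treated and 95.9, 99.9 and 97.3 in JAK inhibitor-treated mice. *Npl* was thus above *Gne* in every control and slightly below it in every treated library. Per 100 FPKM of *Nans* the values were 52.9, 67.0 and 94.8 in vehicle-treated and 27.1, 33.1 and 28.6 in JAK inhibitor-treated mice. Per 100 FPKM of *Cmas* they were 36.2, 40.7 and 61.3, and 16.9, 20.1 and 15.7.

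Against *Neu1*, which was itself lower in treated mice, *Npl* stood at 85.6, 115 and 105 per 100 FPKM in vehicle-treated and at 54.2, 59.8 and 51.2 in JAK inhibitor-treated mice. The groups did not overlap for *Gne*, *Nans*, *Cmas*, *Neu1* or *Siglece*. They overlapped for *Cd33*, at 90.4, 103 and 27.1 in vehicle-treated and 81.3, 172 and 107 in JAK inhibitor-treated mice. Against the mean of *Gne*, *Nans*, *Cmas* and *Neu1* on the log scale, *Npl* was at 74.0, 91.9 and 113 per 100 FPKM in vehicle-treated and at 39.3, 44.7 and 38.7 in JAK inhibitor-treated mice, a log2 difference of -1.17.

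**Figure D2:**
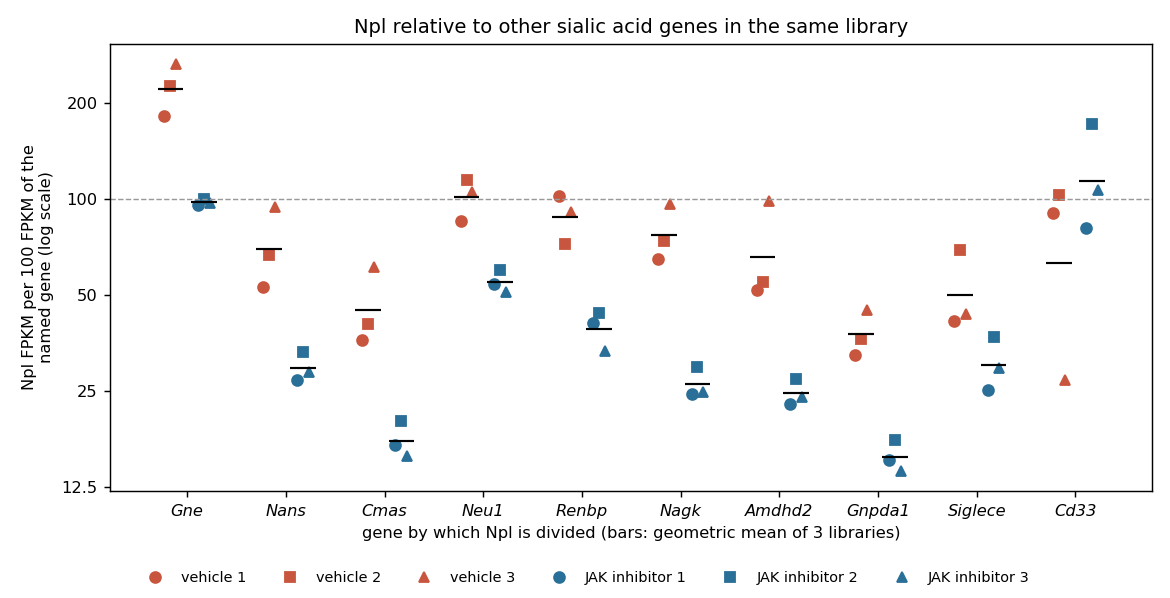
*Npl* FPKM per 100 FPKM of the gene named on the x axis, in the same library (log y axis); red symbols are vehicle-treated and blue symbols JAK inhibitor-treated libraries, the shape gives the replicate number, black bars are geometric means of 3 libraries and the dashed line marks equal levels. The treated libraries lie below all control libraries for each gene shown except *Cd33*, where the groups overlap.

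The enzymes that act after *Npl* return its product to the amino sugar pool. *Renbp* encodes the epimerase that turns N-acetylmannosamine into N-acetylglucosamine, and its level was 24.9, 39.4 and 38.0 FPKM in vehicle-treated and 29.8, 30.4 and 36.1 FPKM in JAK inhibitor-treated mice. The groups overlapped (log2 difference -0.06, standard error 0.18). *Nagk* encodes the kinase that phosphorylates N-acetylglucosamine. It was at 39.1, 38.4 and 36.0 FPKM in vehicle-treated and 49.6, 45.0 and 48.4 FPKM in JAK inhibitor-treated mice, so all treated libraries were above the controls, with a log2 difference of 0.33 (standard error 0.09; limma adjusted p = 0.159).

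*Gnpda1* and *Gnpda2* encode the deaminases that pass glucosamine phosphate on to glycolysis. *Gnpda1*, the most abundant gene of this list, had a log2 difference of 0.05. *Gnpda2* was at 17.4, 12.6 and 23.4 FPKM in vehicle-treated and 10.4, 10.8 and 13.5 FPKM in JAK inhibitor-treated mice, overlapping in vehicle-treated mouse 2, with a log2 difference of -0.55 (standard error 0.21; limma adjusted p = 0.250) that was -0.34 without vehicle-treated mouse 3. *Guf1* overlaps *Gnpda2* on the opposite strand. In this list of 6 genes, 3 were lower and 3 higher in treated mice, with a median of -0.01. Of the 5 other than *Npl* none had a limma adjusted p under 0.05. *Nagk* (higher) and *Gnpda2* (lower) had an unadjusted limma p under 0.05, a threshold met by 16.0% of all genes tested.

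The wider pathway was described with 11 lists of 76 genes, of which 61 entered the test. Of the 15 others, 5 were listed at 0 in all libraries. Of the 60 tested genes other than *Npl*, 28 (46.7%) had a log2 difference below 0, against 50.6% of all genes tested. By limma 0 of the 60 had an adjusted p under 0.05. At an unadjusted p under 0.05 there were 7 (11.7%), against 16.0% of all genes tested, and the groups did not overlap for 13 (21.7%), against 22.0%. The median log2 difference of the 60 genes was 0.03, and that of all genes tested was 0.00. Without the 9 members, 5 of 54 genes (9.26%) had an unadjusted p under 0.05. The shares of the lists were thus near or below those of all genes.

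Per list, the medians were small. The 5 tested genes that supply UDP-GlcNAc had a median of 0.22, the 4 of synthesis and activation 0.07, the 2 transporters 0.11, the 3 of the sialidase complex 0.11 and the 3 that modify sialic acid -0.02. The most abundant of these, by list, were *Uap1l1* (log2 difference -0.06), *Cmas*, *Slc35a1*, the Golgi transporter of CMP-sialic acid (-0.04), *Ctsa* and *Casd1*, the sialic acid O-acetyltransferase (0.31, and 0.16 without JAK inhibitor-treated mouse 2 or 0.19 without vehicle-treated mouse 3). By limma none of these 5 lists held a gene with an adjusted p under 0.05, and 1 gene, *Neu1*, had an unadjusted p under 0.05.

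Of 20 sialyltransferases 12 were tested, and 5 were lower (41.7%, against 50.6% of all genes tested) and 7 higher, with a median of 0.05. *St8sia4*, which builds polysialic acid, was at 17.3, 27.0 and 13.5 FPKM in vehicle-treated and 27.2, 33.4 and 31.9 FPKM in JAK inhibitor-treated mice. The groups were apart by 27.0 against 27.2 FPKM only (log2 difference 0.70, standard error 0.22; limma adjusted p = 0.182). *St3gal2* was at 6.21, 8.28 and 3.99 FPKM in vehicle-treated and 8.80, 10.3 and 8.56 FPKM in JAK inhibitor-treated mice, again without overlap (log2 difference 0.55, standard error 0.22; limma adjusted p = 0.270), and the difference was 0.32 without vehicle-treated mouse 3. *St3gal4*, the most abundant of the family, had a log2 difference of 0.08.

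**Figure D3:**
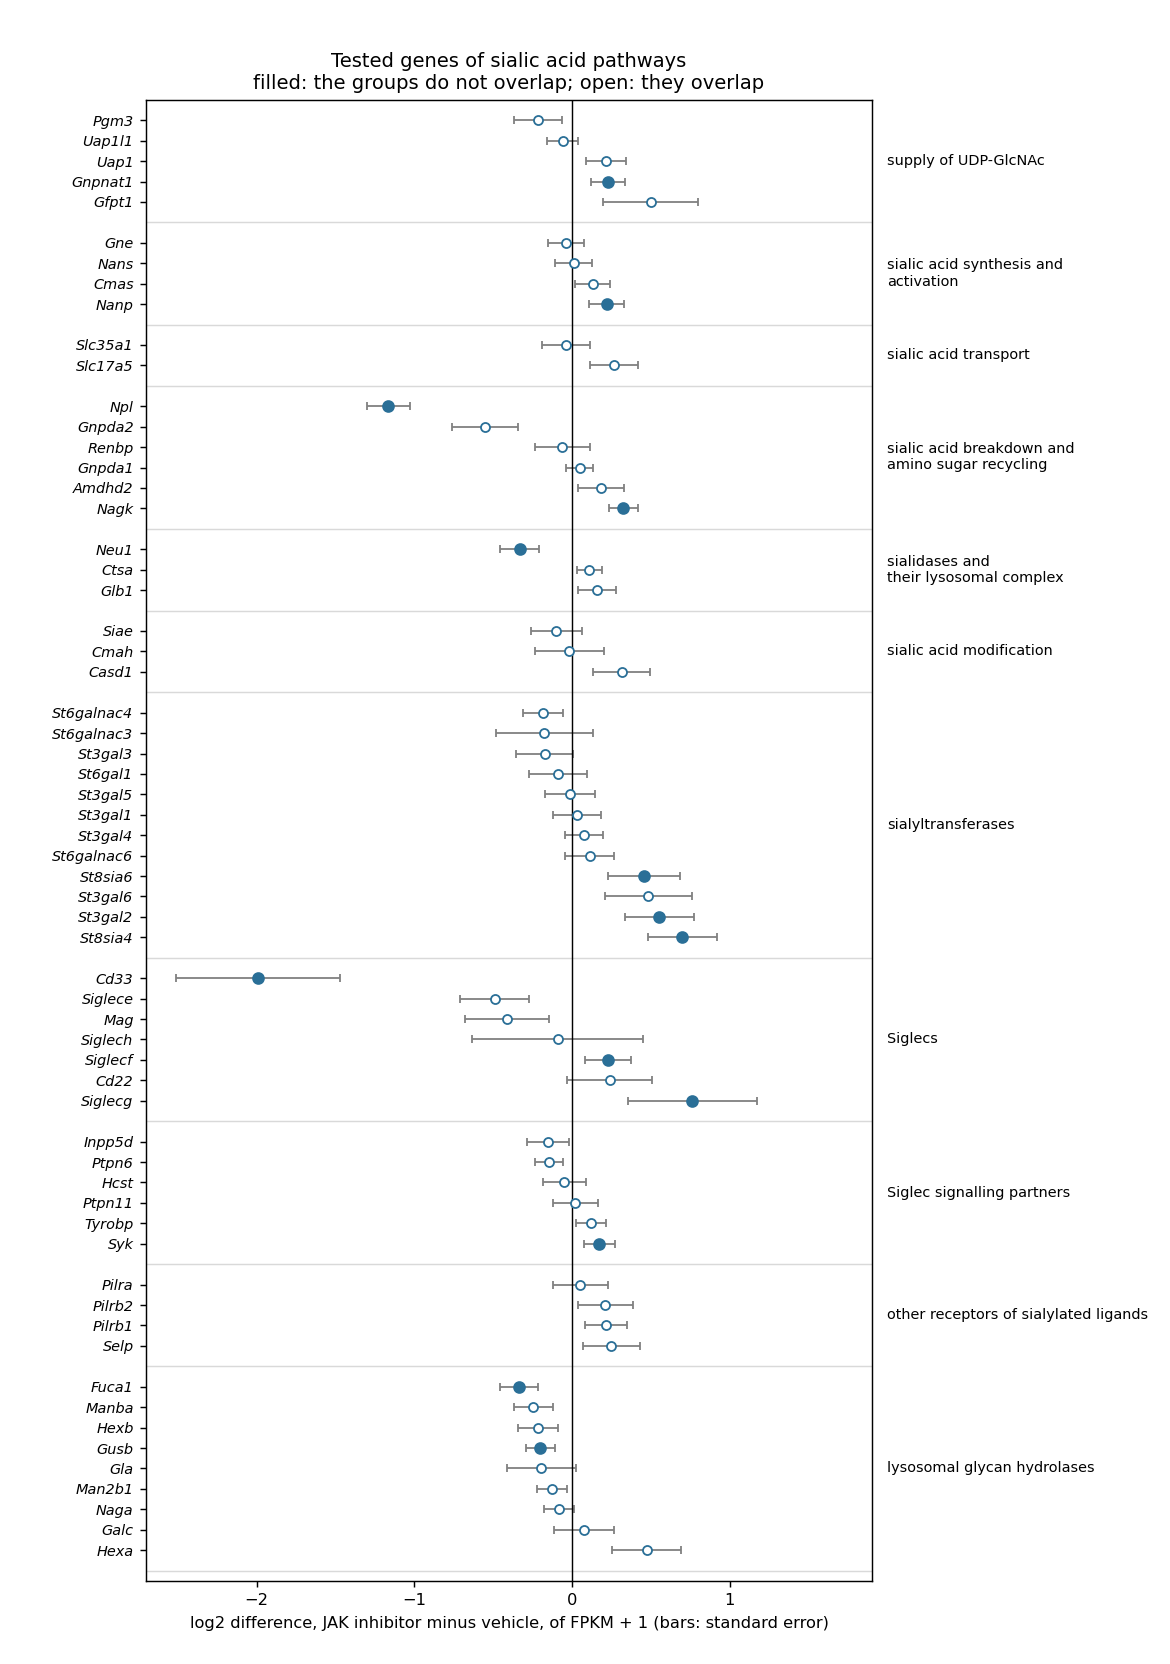
Log2 difference of FPKM + 1, JAK inhibitor minus vehicle (x axis), with its standard error, for the 61 tested genes of 11 sialic acid lists (y axis); filled points are genes whose groups of 3 libraries do not overlap, open points those that overlap. Most points lie near 0, with *Npl* (-1.16) and *Cd33* (-1.99) farthest to the left.

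Of 9 Siglecs 7 were tested, and 4 were lower (57.1%, against 50.6% of all genes tested) and 3 higher, with a median of -0.09. The groups did not overlap for 3 of the 7 (42.9%, against 22.0% of all genes tested). Of these, *Cd33* was lower, and *Siglecg* and *Siglecf* were higher in treated mice. *Siglech*, a Siglec of plasmacytoid dendritic cells, was at 13.9, 15.4 and 2.18 FPKM in vehicle-treated and 6.17, 7.45 and 9.62 FPKM in JAK inhibitor-treated mice. Its log2 difference was -0.09 with all libraries and -0.86 without vehicle-treated mouse 3, and it turned positive without vehicle-treated mouse 1 (0.26) or 2 (0.33) or JAK inhibitor-treated mouse 1 (0.04). *Siglecg*, known from B cells, was at 10.4, 10.2 and 2.39 FPKM in vehicle-treated and 11.9, 10.6 and 13.1 FPKM in JAK inhibitor-treated mice. All treated libraries were above the controls, by 10.6 against 10.4 FPKM only. Its log2 difference of 0.76 (limma adjusted p = 0.406) was 0.19 without vehicle-treated mouse 3. *Siglec15* was at 0 in 5 libraries and at 0.132 FPKM in the sixth. *Tyrobp*, the adaptor of several activating receptors, was abundant in all libraries and had a log2 difference of 0.12.

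Of 5 other receptors of sialylated ligands 4 were tested, and all 4 had values above 0 for the log2 difference, with a median of 0.21 and overlapping groups. Among all genes tested 50.6% had a log2 difference below 0. *Pilra*, which encodes an inhibitory receptor of myeloid cells and was the most abundant of them, was at 155, 94.2 and 140 FPKM in vehicle-treated and 145, 117 and 135 FPKM in JAK inhibitor-treated mice. Its log2 difference was 0.05 (95% confidence interval -0.35 to 0.45; limma adjusted p = 0.916), and the treated values lay inside the range of the controls. By limma 0 of these 4 genes passed at an adjusted or an unadjusted p under 0.05.

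The genes whose levels were most like those of *Npl* over the 6 libraries, by Pearson's r of log2(FPKM + 1), were *Mavs* (0.998), *Aimp2* (0.998), *Pmvk* (0.997), *Stab1* (0.992) and *Odc1* (0.991). With 6 libraries in 2 groups, such values rest largely on the difference between the groups. *Pmvk*, an enzyme of the mevalonate pathway, was at 33.1, 34.6 and 41.2 FPKM in vehicle-treated and 20.5, 20.9 and 20.9 FPKM in JAK inhibitor-treated mice. *Stab1*, encoding the scavenger receptor stabilin of macrophages, was at 3.36, 4.83 and 6.26 FPKM in vehicle-treated and 1.29, 1.46 and 1.05 FPKM in JAK inhibitor-treated mice. Among the pathway genes the highest r with *Npl* was that of *Cd33* (0.87) and the lowest was that of *Nagk* (-0.98).

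The summed levels of some further marker lists were apart between the groups. However, by limma no macrophage or osteoclast marker had an adjusted p under 0.05. An unadjusted limma p under 0.05 was found for 5 of 11 macrophage markers, all lower, against 16.0% of all genes tested. For osteoclast markers the count was 7 of 8 (87.5%, against 16.0% of all genes tested), with 6 lower and 1 higher in treated mice. Of 11 tested macrophage markers 10 were lower in JAK inhibitor-treated mice, against 50.6% of all genes tested, with a median of -0.99. Their summed level was 286 to 471 FPKM in vehicle-treated and 142 to 247 FPKM in JAK inhibitor-treated mice, and *Timd4* was at 0 in 5 libraries. Of 8 tested osteoclast markers 7 were lower (87.5%, against 50.6% of all genes tested), with a median of -1.26 and sums of 178 to 646 against 124 to 129 FPKM, and *Calcr* was at 0 in all libraries. *Npl* was lower in every treated library, as both of these sums were. Within the controls, vehicle-treated mouse 3 had the highest *Npl*, *Cd33* and *Siglece*, the highest osteoclast and neutrophil sums and the lowest macrophage sum. The osteoclast and neutrophil lists share *Mmp9*, and the plasmacytoid dendritic cell and interferon lists share *Bst2*, so these sums are not separate. The neutrophil sum was 16431, 13082 and 21701 FPKM in vehicle-treated mice 1 to 3. In every library of both groups it was above the sum of monocyte and osteoclast precursor markers, a sum over different genes. Of 11 neutrophil markers 6 were lower (54.5%, against 50.6% of all genes tested), with overlapping sums of 13082 to 21701 and 11219 to 19276 FPKM. By limma 5 of these 11 (45.5%, against 16.0% of all genes tested), 3 lower and 2 higher, had an unadjusted p under 0.05, and 0 had an adjusted p under 0.05. The sum of plasmacytoid dendritic cell markers was 163 to 395 FPKM in vehicle-treated and 387 to 431 FPKM in JAK inhibitor-treated mice, with the lowest value, like that of *Siglech*, in vehicle-treated mouse 3. Of 13 tested interferon target genes 11 (84.6%, against 50.6% of all genes tested) were lower, with sums of 89.6 to 131 and 92.1 to 107 FPKM. By limma 5 of the 13 (38.5%, against 16.0% of all genes), all lower, had an unadjusted p under 0.05. Of these, 1 had an adjusted p under 0.05, against 0.133% of all genes. In the other direction, the sum of T and NK cell markers was 171 to 366 FPKM in vehicle-treated and 491 to 561 FPKM in JAK inhibitor-treated mice. Of the 5 tested T and NK genes, however, 3 were lower and 2 higher, with a median of -0.23. The sum of erythroid markers was 22.1 to 25.9 FPKM in vehicle-treated mice. It was 31.7, 29.9 and 79.3 FPKM in JAK inhibitor-treated mice 1 to 3. All 5 of 5 tested erythroid genes were higher, whereas 50.6% of all genes tested had a log2 difference below 0. The sum of eosinophil, basophil and mast cell markers was 1828 to 3652 FPKM in vehicle-treated and 2654 to 4183 FPKM in JAK inhibitor-treated mice. Of these 7 genes 5 were higher and 2 lower in treated mice. By limma 2 of them (28.6%, against 16.0% of all genes tested), both higher, had an unadjusted p under 0.05, and 0 had an adjusted p under 0.05. The B cell markers *Ms4a1* and *Pax5* were at 0 in all libraries. Whether the sorted precursors themselves or other cells expressed these markers was not tested. The part of either in the values of *Npl*, *Cd33* and the other Siglecs was not tested.

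**Figure D4:**
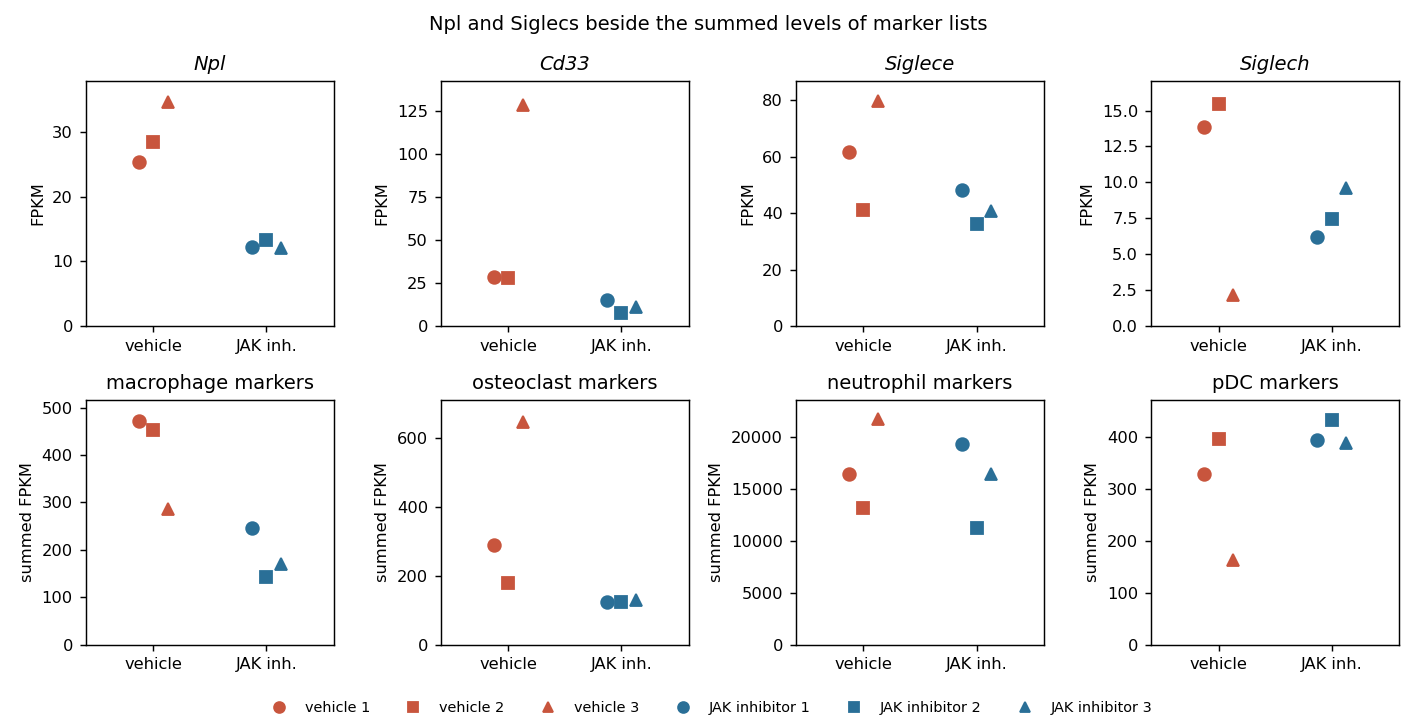
FPKM of *Npl*, *Cd33*, *Siglece* and *Siglech* (upper row) and summed FPKM of macrophage, osteoclast, neutrophil and plasmacytoid dendritic cell (pDC) marker lists (lower row) in each vehicle-treated (red) and JAK inhibitor-treated (blue) library, with the shape giving the replicate number and y axes from 0. The macrophage and osteoclast sums are lower in every treated library. Vehicle-treated mouse 3 is highest for *Npl*, *Cd33*, *Siglece* and the osteoclast and neutrophil sums and lowest for *Siglech* and the pDC sum. The osteoclast and neutrophil lists share *Mmp9*.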

How the data were processed

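RNA-Seq of 3 JAK inhibitor-treated and 3 vehicle-treated libraries was analyzed, grouped by their labels. The authors deposited 1 table of FPKM per library. The submitters' processing notes name TopHat2 2.0.13, Bowtie2 2.2.3, SAMtools 0.1.19, Cufflinks 2.2.1 and mm10; the annotation, and any scaling beyond FPKM, are not given in the sources used here. The methods name a stranded mRNA kit, whereas the labels name SMART-Seq HT with Nextera. The ratios of 2200 to 2377 low genes between pairs of libraries had no clear peak (at most 62 genes in a bin of 0.01 on the log2 scale), so depth stayed unknown and no counting intervals are given.

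From the deposited FPKM, log2(FPKM + 1) of genes with at least 1 FPKM in at least 1 library was compared with limma 3.58.1 (R 4.3.3; empirical Bayes with a mean-variance trend, p adjusted by Benjamini-Hochberg over all 11301 genes). The fit was tried on simulated data with changes larger than that of *Npl*, which do not show how it performs for smaller differences. Single genes also had a two-sided exact permutation test. Positions are from GENCODE on GRCm38, promoters from RefSeq. Tables used Python 3.11.15, pandas 2.3.3, NumPy 2.4.6 and SciPy 1.17.1, and figures matplotlib 3.10.9.

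The members and gene lists were chosen with earlier results of these data known. The genes named were the 9 members, the most abundant gene of each list and up to 5 of its genes with an unadjusted p under 0.05, and the 5 genes most like *Npl*. Other genes, such as *Nanp*, *Renbp*, *Siglech*, *Siglecg*, *Siglecf*, *Siglec15* and *Gusb*, were named after their values were seen. The alternatives were a pseudocount of 0.1, no filter, at least 1 FPKM in 3 libraries, quantile and median ratio scaling, no trend, library weights, a replicate block, and leaving out each library in turn. Some genes of the lists are not reported here and were left out of the counts of the lists.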

Additional observations from a re-analysis of the deposited data

How the results depend on the processing

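The log2 difference of *Npl* moved by less than the spread between libraries under all 14 alternatives, as did its ratio to the mean of 4 other enzymes under the 7 that apply to it (FPKM + 1, and each library left out), between -1.32 and -1.02. The count of all genes with a limma adjusted p under 0.05, 15 as reported, was 2 without the filter, 34 with 1 FPKM required in 3 libraries, 2 without the trend and 63 with library weights, and 1 to 25 with each library left out. Among the pathway genes other than *Npl* the count was 0 under every alternative by limma; at an unadjusted p under 0.05 it was 7 as reported and 5 to 11 with each library left out, the highest without vehicle-treated mouse 2. Differences near 0 changed sign: *Nans* to -0.061 with library weights, and, with a library left out, *Nans* between -0.089 and 0.10, *Gne* between -0.071 and 0.00065, *Slc35a1* between -0.14 and 0.11, *St3gal4* between -0.012 and 0.17, *Pilra* between -0.16 and 0.20, and *Siglech* between -0.86 and 0.33. The cause was not tested.

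With the replicate number as a block, 67 genes had an adjusted p under 0.05. Libraries with the same number did not deviate together (correlations of 0.016, 0.054 and -0.00016), and not every library correlated best with its own number, so the block is not read as a pairing. With 3 libraries per group and unknown depth, values under 1 FPKM, those of *Neu3* and *Siglec1* among them, have an unknown counting error.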

Other observations

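Lysosomal hydrolases that trim other sugars of glycans were listed beside the sialidases. Of 9 tested genes 7 (77.8%, against 50.6% of all genes tested) were lower in JAK inhibitor-treated mice, with a median log2 difference of -0.19, and the groups did not overlap for 2, *Fuca1* and *Gusb*, both lower (22.2%, against 22.0% of all genes). *Fuca1*, which encodes the lysosomal fucosidase, was at 84.0, 77.0 and 104 FPKM in vehicle-treated and 71.0, 66.0 and 70.7 FPKM in JAK inhibitor-treated mice (log2 difference -0.34, standard error 0.12; limma adjusted p = 0.219), and its log2 difference was -0.21 without vehicle-treated mouse 3. *Hexa*, the most abundant of them, encodes a subunit of hexosaminidase and lay in the other direction, with a log2 difference of 0.47 (limma adjusted p = 0.336), and was lowest, at 165 FPKM, in vehicle-treated mouse 3, without which its log2 difference was 0.18. At an adjusted p under 0.05 limma called 0 of these 9 genes, and 1 (11.1%, against 16.0% of all genes) had an unadjusted p under 0.05.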
